A study of Mus musculus with 20 samples.

Results

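Natural killer (NK) cells made up 1320 of the 54289 immune cells analyzed from mouse interscapular brown adipose tissue (iBAT), or 2.43%. They were picked from the 10 libraries of lineage-positive (Lin+) cells, after removal of cells with 10% or more mitochondrial counts, with 15000 or more transcripts counted as unique molecular identifiers (UMIs), or with fewer than 300 or more than 4000 genes detected. A cell was taken as an NK cell when its UMIs for Ncr1, Klrb1c, Klre1 and Gzma summed to at least 3 and those for the first 3 of these genes to at least 1, while Cd3d, Cd3e and Cd3g together stayed under 0.5 and Cd79a, C1qa and C1qb together under 1. UMI values were not whole numbers because background RNA had been subtracted from them. The whole series held 119468 cells that passed the same quality limits in its 20 libraries.

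NK cells are innate lymphocytes that kill infected, transformed or stressed cells without a rearranged antigen receptor. They weigh inhibitory signals from MHC class I molecules, read in mice by the Ly49 receptors (Klra genes) and by NKG2A, against signals from activating receptors such as NKp46 (Ncr1) and NKG2D (Klrk1), and they release perforin and granzymes from granules or secrete interferon-gamma and chemokines. In mice they mature from CD27-high cells toward CD11b-high (Itgam) cells that carry S1PR5 and leave tissues for the blood, and interleukin-15, interleukin-18 and type I interferon are among the signals that make them divide or become cytotoxic.

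Each Lin+ library pooled iBAT cells of 3 to 4 mice aged 8 to 14 weeks, and cells were retained on magnetic beads by antibodies to CD5, CD11b, CD45R (B220), Gr-1, 7-4 and Ter-119. None of these is specific to NK cells, and mature NK cells can be bound through CD11b. Male C57BL/6J mice stayed at 24 °C (room temperature, RT), spent 4 days at 6 °C, housed singly (COLD), or received the ADRB3 agonist CL316,243 by pump at 0.75 nmol per hour for 4 days (CL), with 2 libraries for each group. Female mice carrying Adrb1 fl/fl were kept at RT or in COLD, with 1 library each for Pdgfra-CreER -/- (WT) and Pdgfra-CreER +/- (KO) animals, and all of them received tamoxifen. The Pdgfra promoter drives Cre in stromal cells, so that Adrb1 in NK cells (0 to 10 CPM, the UMIs of a gene scaled to the same total in each library, in the 10 libraries) does not check the deletion. The WT RT and KO RT libraries were made with version 3 of the 10x Genomics kit and the other 8 libraries with version 2, and in this line the treatments were also collected on different days. Kit, day and temperature cannot be told apart within it.

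The NK cells of a library numbered 60 to 223, with a median of 1311 to 2982 UMIs and 775 to 1597 genes per cell, and their UMIs summed to 197223 to 684289. All differences between conditions below compare these sums, 1 per library, since cells of 1 library are not replicates. Of the 45 pairs of Lin+ libraries, 2 shared 1 cell barcode among the kept NK cells. Transcripts of other cell types varied widely among the NK sums and moved with cold: the hemoglobin genes and Alas2 summed to 1612 and 4792 CPM in C57BL/6J RT, 14020 and 9121 CPM in COLD, 16.6 and 32030 CPM in CL, 15.5 and 21.9 CPM in WT RT and KO RT, and 49010 and 58870 CPM in WT COLD and KO COLD. Cells with at least 5 UMIs of another type's markers were 139 of the 1320 (10.5%), from 0% in WT RT to 31.8% in the second CL library and 33.3% in WT COLD. These were markers of macrophages and monocytes, dendritic cells, neutrophils and basophils, erythroid cells, and stromal, endothelial and adipocyte cells. Markers of T and B cells were not counted here or in the fits without such cells.

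The cells were then described by markers that had not been used to pick them. The list of these markers was chosen with earlier results of these data known. T cells with NK receptor transcripts had been left out, so that the ratios are a description and no independent test of the label. All 24 NK identity genes listed, among them Eomes (a T-box factor of NK cells), Txk, Klrd1 and Prf1, were higher in the NK cells than in T cells (CD3 genes summing to at least 2 and NK receptors under 0.5) and in B cells of the same libraries, and 22 were higher than in all other kept Lin+ cells. Their median log2 ratio over T cells was 3.42 against 0.26 for the 3036 genes that reached 50 CPM. After each cell had been thinned to 1000 UMIs, Prf1 (perforin) was detected in 47.7% of 1145 NK cells, 2.03% of 4640 T cells and 0.207% of 5792 B cells. Gzmb (granzyme B) was detected in 60.4% of NK cells and 4.33% of T cells, Eomes in 23.7% and 1.64%, and Klra4 (Ly49D) in 35.1% and 0.0431%.

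T-cell receptor and coreceptor genes were found in unequal shares of NK cells. Trac, the constant region of the T-cell receptor alpha chain, was found in 1.83% of thinned NK cells and 37.0% of T cells, Cd4 in 0% (0 of 1145 cells, which allows up to 0.262% of cells with a UMI at this depth and sets no limit on cells that express it) and 7.41%, and Cd8a in 0.175% and 14.9%. Trbc1, which NK cells can transcribe from an unrearranged locus, was found in 37.8% of NK cells and 35.7% of T cells, Trbc2 in 20.3% and 68.3%, and Trdc, the constant region of the delta chain, in 6.81% and 2.05%. Zbtb16, the factor that defines NKT cells, summed to 0 to 17 CPM in the NK cells of a library. Markers of tissue-resident type 1 innate lymphoid cells were also scarce: Itga1 (CD49a) was found in 0.873% of NK cells, Cxcr6 in 0.524% and Il7r in 1.05%, and the list of 13 such genes summed to 164 to 493 CPM in NK cells and 1331 to 2462 CPM in T cells. Lyz2, a macrophage and granulocyte gene that NK cells lack, stood at 3.67% of NK cells and 5.45% of T cells, and no background share was measured for the other genes.

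Genes ranked by their ratio over T cells were led by receptors. Aside from the 4 genes used to pick the cells, the first 20 held Klra4, Klra8, Klra9, Klri2, Klrb1a, Klra7 and Klra3, together with Khdc1a, Serpinb9b, Cma1 (mast cell chymase, a known transcript of mature mouse NK cells), Prf1, Styk1, Spry2, S1pr5, Adamts14 and Car2. Summed over libraries, Klra4 stood at 766 CPM in NK cells and 0.617 CPM in T cells, Klra8 (Ly49H) at 748 and 0.686 CPM, and Prf1 at 750.3 and 21.0 CPM. These ratios describe cells chosen by their expression and were not tested. Of the 21 lectin-like receptor genes listed, coordinates were found for 20, all on chromosome 6 of mm10 (GRCm38). Klrg1 stands apart at chr6:122270596-122282882, and the others lie between positions 128609227 and 130386874. The picking genes Klrb1c (chr6:128778485-128789215) and Klre1 (chr6:129577905-129585827) lie in the same interval, whereas Ncr1 lies at chr7:4337724-4345164 and Gzma at chr13:113093825-113100981. Ly49 genes are near-identical paralogs, so reads may be split between them.

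Cells near the limits on the picking genes were as follows. Among members, 34 had a sum between 3 and 4, whereas the per-library median of the sum was 14.0 to 32.9, and 28 cells that met the other limits had a sum between 2 and 3 and stayed outside. A further 253 cells reached the sum with under 1 UMI of the 3 receptors, 285 had CD3 transcripts and 48 had C1q or Cd79a transcripts. Gzma was detected in 93.5 to 99.2% of NK cells per library, Klre1 in 82.1 to 93.5%, Klrb1c in 63.6 to 91.7% and Ncr1 in 58.0 to 81.7%.

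In C57BL/6J mice, NK cells were 2.56% (112 of 4369 cells, exact 95% interval 2.12 to 3.08%) and 4.68% (223 of 4760 cells, exact 95% interval 4.10 to 5.32%) of Lin+ cells at RT. In COLD they were 2.34% (186 of 7957 cells, exact 95% interval 2.02 to 2.69%) and 2.50% (160 of 6397 cells, exact 95% interval 2.13 to 2.91%). In CL they were 1.42% (91 of 6426 cells, exact 95% interval 1.14 to 1.74%) and 2.11% (129 of 6126 cells, exact 95% interval 1.76 to 2.50%). The COLD and RT libraries did not overlap, but the first RT library lay just above COLD. The intervals cover counting error only. Mean shares were 3.62 ± 1.50% (SD, n = 2) at RT, 2.42 ± 0.116% in COLD and 1.76 ± 0.488% in CL, and each difference gave an exact permutation p of 0.333, the smallest that 2 against 2 libraries allow.

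The Adrb1 line gave 4.00% in WT RT, 2.61% in KO RT, 1.48% in WT COLD and 2.55% in KO COLD. Over the 4 RT and 4 COLD libraries of both lines the mean share was 3.47 ± 1.05% at RT and 2.22 ± 0.497% in COLD (SD, n = 4), a difference of -1.25 percentage points (two-sided exact permutation p = 0.0286, the smallest that 4 against 4 allow). That test exchanges libraries over lines that differ in sex and, at RT, in kit, and with exchanges within each line alone, a test added after seeing the data, p was 0.0556, the smallest such exchanges allow. The p rose to between 0.143 and 0.171 when any COLD library was left out, to 0.114 with a picking sum of 5 or after thinning, and to 0.257 without Gzma in the sum. Relative to other lymphocytes the order was the opposite. NK cells were 8.84% and 11.8% of all NK, T and B cells in C57BL/6J RT and 23.7% and 15.2% in COLD, and over both lines 8.59% at RT and 14.2% in COLD (difference 5.58 points, exact permutation p = 0.2). B cells were 17.8% and 22% of Lin+ cells in C57BL/6J RT and 3.70% and 6.33% in COLD, and T cells were 8.63% and 13.0% at RT and 3.85% and 7.68% in COLD. A share cannot tell fewer NK cells from more cells of other kinds, since no cells were counted per mouse. In the lineage-negative (Lin-) libraries the share of cells that passed the NK limits was higher in COLD. It was 0.215 and 0.229% in C57BL/6J RT and 0.479 and 0.714% in COLD. WT RT and KO RT gave 0.0624 and 0.0417%, and WT COLD and KO COLD 0.187 and 0.329%, on 1 to 49 cells per library. Whether NK cells passed between the fractions, which a CD11b antibody helps divide, was not tested.

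**Figure D1:**
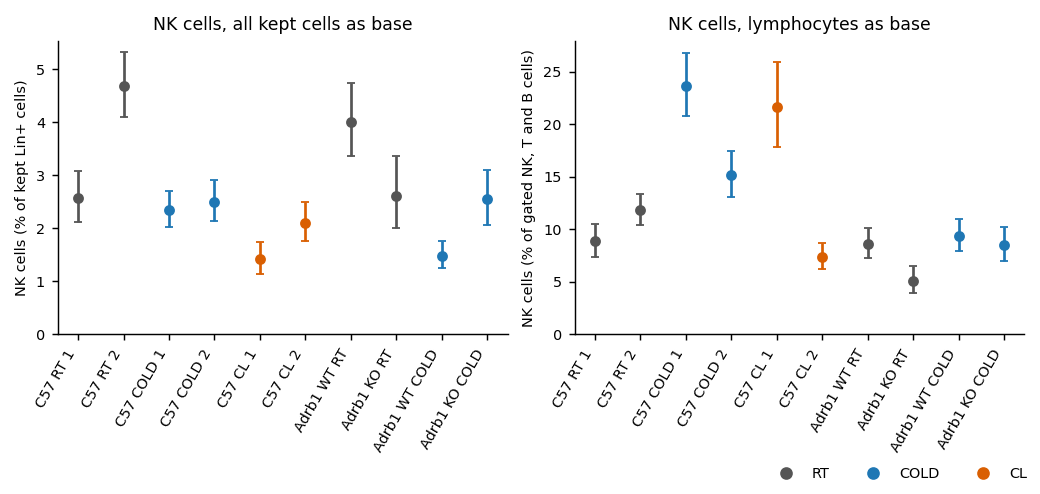
NK cells as a percentage of kept Lin+ cells (first panel) and of all NK, T and B cells (second panel), 1 point per library with exact 95% binomial intervals. RT libraries of both lines lie between 2.56 and 4.68% in the first panel and COLD libraries between 1.48 and 2.55%, whereas in the second panel the C57BL/6J COLD libraries, at 23.7 and 15.2%, lie above RT at 8.84 and 11.8%.

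Cold was compared with RT in NK cells in C57BL/6J mice, where all libraries used the same kit, and then in the 8 RT and COLD libraries of both lines with a term for the line. With edgeR's quasi-likelihood test and Benjamini-Hochberg adjustment, 4 of 5599 genes (0.0714%, with 2 or 0.0357% in each direction) passed an adjusted p of 0.05 in C57BL/6J mice, and 825 of 4681 (17.6%) passed over both lines, 346 higher in COLD (7.39%) and 479 lower (10.2%). The C57BL/6J count varied with the libraries, cells and filter used. It was 189 without cells with markers of other types, 274 without a filter on low counts, 278 of 5655 genes (4.92%) with the 4 RT and COLD libraries alone, a fit chosen after seeing the data, 349 without the first and 311 without the second CL library, and 17, 32 and 15 without the first COLD, the second COLD and the second RT library. It was 32 (0.572%) when the replicate number, which marks a shared experiment, was kept as a block. Over both lines the count was 41 without KO COLD, 111 without WT RT, 213 without the first C57BL/6J RT library, 288 without KO RT, 345 without WT COLD and 1293 without the second C57BL/6J RT library. It was 25 of 5463 (0.458%) with the replicate of C57BL/6J mice and the genotype of the Adrb1 line as blocks. Of 98 named genes called over both lines, 82 lost their call under these blocks. The gene lists kept few calls there: 4 of 30 interferon genes, 1 of 26 cell cycle genes and 1 of 21 immediate early genes rose, 2 of 18 homing genes fell, and none of 9 immature-stage, 11 mature-stage, 9 glycolytic, 19 transcription factor and 13 cytokine receptor genes was called.

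Of the genes named by size of change and by libraries that do not overlap, Itga2 fell most in cold. It encodes the integrin CD49b, which the DX5 antibody detects and which marks mouse NK cells (chr13:114833081-114932100). Itga2 stood at 184 and 153 CPM in C57BL/6J RT, 30.6 and 27.2 CPM in COLD and 85.5 and 102 CPM in CL. The COLD libraries lay below all others. It was 6.18-fold lower in COLD than RT on a fitted log2 difference of -2.63 (SE 0.29, adjusted p = 0.00448), and it passed the test in all 6 fits that left out 1 library. In the Adrb1 line it stood at 528 and 405 CPM at RT against 62.7 and 45.0 CPM in COLD. Over both lines the log2 difference was -2.71 (SE 0.23, adjusted p = 0.000102), with an adjusted p of 0.00301 under the block. All 4 COLD libraries were below all 4 RT libraries, as for 7.84% of all genes.

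Among other integrins, Itga4, Itgam and Itgal were called lower over both lines. Itga4, the alpha chain of VLA-4, stood at 356 and 244 CPM in C57BL/6J RT and 143 and 118 CPM in COLD, with values of 1285 and 1340 CPM and 149 and 115 CPM in the Adrb1 line, and fell over both lines by a log2 difference of -2.12 (SE 0.33, adjusted p = 0.00807), a call kept in 8 of 8 fits without 1 library. Its cold response differed between the lines (-1.31 in C57BL/6J mice and -2.89 in the Adrb1 line, adjusted p of the difference = 0.0197). Itgam, the CD11b chain that marks mature NK cells and that the sorting antibodies target, stood at 93.2 and 146 CPM at RT against 38.1 and 59.2 CPM in COLD. Its log2 difference was -1.52 (SE 0.30, adjusted p = 0.0629) in C57BL/6J mice and -1.34 (SE 0.23, adjusted p = 0.00881) over both lines. Cells of the Lin- fraction that passed the NK limits were compared with the Lin+ NK cells after seeing the data (401 of 4718 genes called, 8.5%), but the CD11b antibody divides these fractions, so that Itgam is no result there. Itgal, the LFA-1 chain, fell over both lines (-0.88 (SE 0.22, adjusted p = 0.0225)), whereas its partner Itgb2 gave -0.59 (SE 0.20, adjusted p = 0.0546). Of the 16 homing and adhesion genes tested over both lines, 5 fell (10.2% of all genes did so) and 1 rose (Cxcr3, 1.21 (SE 0.38, adjusted p = 0.0441)), and their median log2 difference was -0.33 against 0.03 for all genes. The list summed to 6564 and 6591 CPM in WT RT and KO RT and to 2925 to 3938 CPM in the other 8 libraries.

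Most genes of the mature stage had log2 differences below 0 in cold in C57BL/6J mice, and none passed the test there. The list as a sum, in which Gzmb and Lgals1 weigh most, was not lower, at 5657 and 6469 CPM at RT against 5909 and 7333 CPM in COLD. The median log2 difference was -1.19 over 10 tested genes, 9 of them below 0 and none called, and the COLD libraries lay below both RT libraries for 6 (19.3% of all genes did so). Cma1 stood at 163 and 242 CPM at RT against 34.9 and 58.6 CPM in COLD (-2.29 (SE 0.39, adjusted p = 0.053), and 0.0113 under the block). S1pr5, the sphingosine-1-phosphate receptor with which NK cells exit tissues, stood at 55.6 and 71.3 CPM at RT against 8.77 and 18.9 CPM in COLD (-2.42 (SE 0.46, adjusted p = 0.0629), and 0.0467 under the block). Zeb2, a factor needed for the last steps of maturation, stood at 127 and 179 CPM at RT against 52.8 and 110.3 CPM in COLD (-1.10 (SE 0.40, adjusted p = 0.203)). Klrg1, a receptor of late-stage cells, gave -1.29 (SE 0.35, adjusted p = 0.126). Over both lines Itgam, S1pr5, Zeb2 and Cma1 fell, by log2 differences of -1.34, -1.53, -1.28 and -1.25 (adjusted p = 0.00881, 0.0182, 0.0166 and 0.0309), and Gzmb rose. Cma1 lost its call in 7 of the 8 fits that left out a library and S1pr5 in 3. In the Adrb1 line Cma1 went from 295 and 243 CPM at RT to 163 and 180 CPM in COLD.

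Genes of the immature, CD27-high stage lay higher in cold. All 9 that were tested in C57BL/6J mice had log2 differences above 0 (median 0.78), 8 without overlap of the libraries (33.7% of all genes did so), but none passed the test. Over both lines 7 of 9 rose (7.39% of all genes did so), with a median of 1.00, and under the blocks none did. Xcl1, a chemokine that draws type 1 dendritic cells, stood at 928 and 1420 CPM at RT against 2191 and 2227 CPM in COLD and at 167 and 511 CPM and 1103 and 1652 CPM in the Adrb1 line, and its log2 difference over both lines was 1.56 (SE 0.40, adjusted p = 0.0242). The difference between the lines in this response passed the test (0.78 in C57BL/6J mice and 2.60 in the Adrb1 line, adjusted p = 0.0154). Ltb (lymphotoxin beta) stood at 95.2 and 89.6 CPM at RT against 286 and 201 CPM in COLD (1.30 (SE 0.30, adjusted p = 0.0193) over both lines). Thy1, a surface glycoprotein of less mature NK cells, stood at 208 and 227 CPM at RT against 458 and 406 CPM in COLD (1.23 (SE 0.23, adjusted p = 0.0109)). The COLD libraries of C57BL/6J mice were above both RT libraries for each of these genes. Cd27 itself rose by a log2 difference of 0.77 (adjusted p = 0.0273), Ctla2a by 0.89 (0.0196) and Cd7 by 1.00 (0.0443), while Tcf7 and Emb gave 0.55 and 0.24 and were not called (adjusted p = 0.248 and 0.461). Thy1 was called in 7 of 8 fits without 1 library, Ltb in 6, Ctla2a in 5, Xcl1 and Cd27 in 4, Cxcr3 in 3 and Cd7 in 2. Ltb is also on the list of genes of type 1 innate lymphoid cells. That list summed to 267 and 284 CPM in C57BL/6J RT against 493 and 422 CPM in COLD. It summed to 181 and 396 CPM in WT RT and KO RT and to 412 and 375 CPM in WT COLD and KO COLD.

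**Figure D2:**
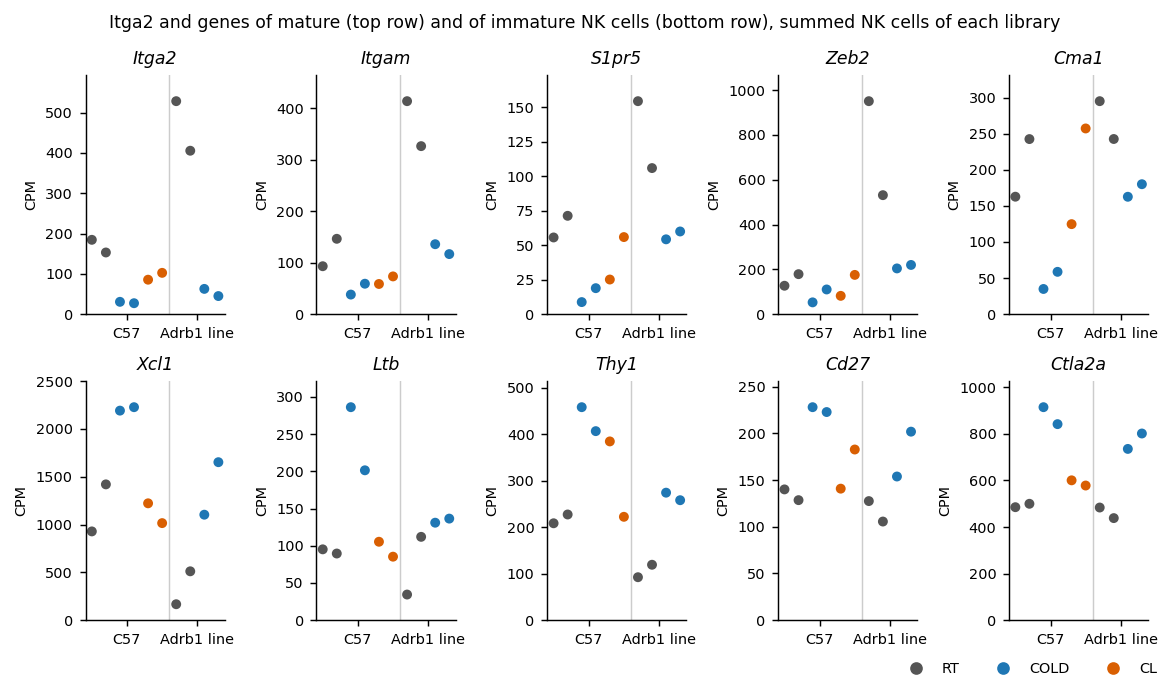
CPM of 5 genes lower in cold (upper row) and 5 genes higher in cold (lower row) in the NK cells of each Lin+ library, C57BL/6J to the left of the line and the Adrb1 line to the right, with RT in grey, COLD in blue and CL in orange. Itga2 in COLD lies between 27.2 and 62.7 CPM and at RT between 153 and 528 CPM, with the CL libraries between them at 85.5 and 102 CPM.

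A larger part of the NK cells of cold-exposed C57BL/6J mice carried cell cycle transcripts. After thinning to 1000 UMIs, the share of NK cells with at least 3 UMIs of the 26 listed cell cycle genes was 9.89% (exact 95% interval 4.62 to 17.9%) and 7.77% (exact 95% interval 4.50 to 12.3%) at RT and 27.5% (exact 95% interval 20.9 to 34.8%) and 22.1% (exact 95% interval 15.4 to 30.0%) in COLD. The mean went from 8.83 ± 1.50% to 24.8 ± 3.84% (SD, n = 2, exact permutation p = 0.333, the smallest possible). T cells of the same libraries stood at 5.93% and 5.22% at RT and 9.96% and 7.97% in COLD, and B cells at 1.15 to 4.02% in all 10 libraries. No such difference was seen in the Adrb1 line, with 3.88% and 6.67% at RT and 4.44% and 7.23% in COLD, so that the difference over both lines (8.25 points) had an exact permutation p of 0.286. Without thinning the NK shares were 11.6 and 9.87% in C57BL/6J RT, 34.4 and 27.5% in COLD, 10.8 and 16.7% in WT RT and KO RT and 3.79 and 8.25% in WT COLD and KO COLD.

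In C57BL/6J mice 25 of 26 cell cycle genes had log2 differences above 0, and COLD libraries were above both RT libraries for 25 (33.7% of all genes did so), with a median log2 difference of 1.71 against 0.00 for all genes, though none passed the test. With the replicate number as a block 6 rose (0.286% of all genes did so), and with the 4 libraries alone 21 (2.25%). Mki67, which encodes the proliferation antigen Ki-67, stood at 72.5 and 26.9 CPM at RT against 306 and 177 CPM in COLD (2.31 (SE 0.64, adjusted p = 0.13), and 0.0375 under the block). Rrm2, the regulated subunit of ribonucleotide reductase, stood at 21.3 and 31.4 CPM at RT against 160.4 and 167 CPM in COLD (2.43 (SE 0.44, adjusted p = 0.0629), and 0.0451 under the block). Tyms, which makes thymidylate for DNA synthesis, stood at 8.38 and 20.8 CPM at RT against 112 and 81.9 CPM in COLD (2.42 (SE 0.45, adjusted p = 0.0629)). The COLD libraries of C57BL/6J mice lay above RT for all 3 of these genes. In the Adrb1 line Mki67 stood at 51.3 and 121 CPM at RT against 16.4 and 22.04 CPM in COLD, and Rrm2 at 15.1 and 5.04 CPM at RT against 0 and 48.2 CPM in COLD. Over both lines 12 of 21 cell cycle genes rose (median 1.05, against 7.39% of all genes that rose), of which Cks1b, a subunit of cyclin-dependent kinases, was called in 8 of 8 fits without 1 library (1.84 (SE 0.32, adjusted p = 0.00881)), and Mki67 gave 0.79 (SE 0.64, adjusted p = 0.381). Within the Adrb1 line, 1 of 26 rose, where 19.5% of all genes did.

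**Figure D3:**
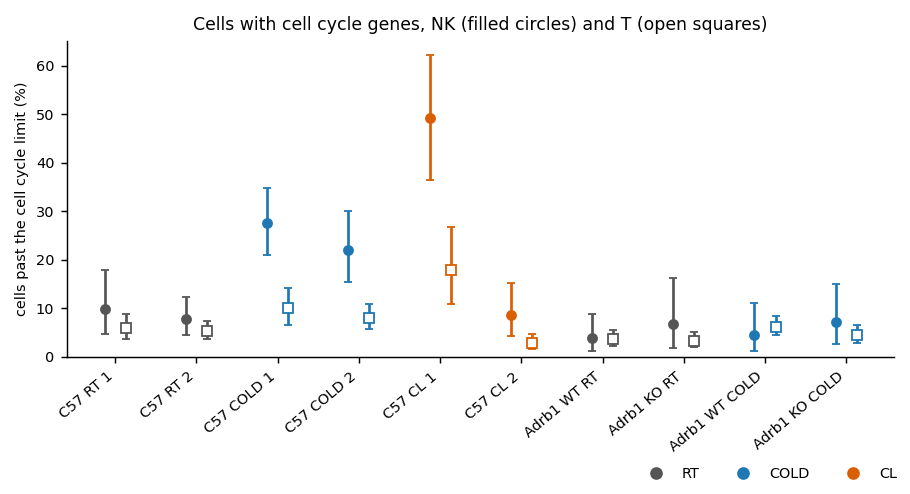
Share of cells with at least 3 cell cycle UMIs after thinning each cell to 1000 UMIs, in NK cells (filled circles) and T cells (open squares) of each Lin+ library, with exact 95% binomial intervals. C57BL/6J NK cells in COLD lie at 27.5 and 22.1% and at RT at 9.89 and 7.77%, the first CL library lies at 49.2% and the second at 8.62%, and the 4 libraries of the Adrb1 line lie between 3.88 and 7.23%.

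Of 14 cytotoxic granule genes tested in C57BL/6J mice none was called (median log2 difference -0.12), and the list summed to 8625 and 9197 CPM at RT against 10010 and 11110 CPM in COLD. Gzmb, which triggers apoptosis in target cells, stood at 1002 and 1147 CPM at RT against 2336 and 2774 CPM in COLD, 2.16-fold higher in COLD (1.11 (SE 0.28, adjusted p = 0.114)), while Prf1, the pore-forming protein that lets granzymes in, stood at 492 and 581 CPM at RT against 569 and 601 CPM in COLD (-0.02 (SE 0.34, adjusted p = 0.993)). Gzmb rose over both lines (1.03 (SE 0.31, adjusted p = 0.0389)), in 1 of 8 fits without 1 library: WT COLD stood at 1025 CPM and KO COLD at 2824 CPM against 1312 and 1251 CPM at RT. Gzmc, a granzyme of strongly activated killer cells whose gene lies at chr14:56231441-56234656 on the chromosome that also holds Gzmb, had 0 and 4.99 UMIs in C57BL/6J RT and 0 UMIs in WT RT and KO RT. It reached 84.9 and 105 UMIs in C57BL/6J COLD (124 and 219.9 CPM), 5 and 12 UMIs in WT COLD and KO COLD, and 2 and 46 UMIs in CL. Gzmc rose over both lines (adjusted p = 0.00226, and 0.00351 under the block, called in 8 of 8 fits without 1 library), while in C57BL/6J mice alone its adjusted p was 0.0629, and 0.0194 under the block. After thinning, Gzmc was found in 25 of 1145 NK cells of all libraries (2.18%) and 12 of 4640 T cells (0.259%), so that its sums rest on few cells. Cst7, an inhibitor of granule cathepsins, rose over both lines (0.95 (SE 0.23, adjusted p = 0.0217)) and Fasl fell (-0.93 (SE 0.25, adjusted p = 0.0267)).

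Among secreted factors, Ccl5 was the most abundant, at 19370 and 19450 CPM at RT against 5277 and 7389 CPM in COLD in C57BL/6J mice (-1.76 (SE 0.38, adjusted p = 0.0695), and 0.0375 under the block). The Adrb1 line held 14110 and 13430 CPM at RT against 13850 and 16020 CPM in COLD, so that the difference over both lines was -0.65 (SE 0.47, adjusted p = 0.327). For Ccl5 the lines differed in the response (adjusted p = 0.0138). Ifng, the signature cytokine of NK cells, stood at 132 and 341 CPM at RT against 197 and 235 CPM in COLD (-0.30 (SE 0.32, adjusted p = 0.667)), with no order between the groups. Ccl3 and Ccl4, macrophage-attracting chemokines, gave -0.25 (SE 0.59, adjusted p = 0.876) and -0.37 (SE 0.46, adjusted p = 0.721). The cytokine receptors showed no call as a list in C57BL/6J mice (median 0.02, none of 14 called), but both chains of the interleukin-18 receptor fell over both lines, Il18r1 by -1.43 (SE 0.24, adjusted p = 0.00807) and Il18rap by -1.63 (SE 0.36, adjusted p = 0.0177). The Il18rap response differed between the lines (-0.66 in C57BL/6J mice and -2.55 in the Adrb1 line, adjusted p = 0.00634), and the cytokine receptor list summed to 4623 and 4730 CPM in WT RT and KO RT and to 2092 to 2878 CPM in the other 8 libraries. Il18r1 stood at 149.5 and 144 CPM at RT against 80.0 and 77.3 CPM in COLD and at 336 and 383 and 79.2 and 71.2 CPM in the Adrb1 line. Of 15 lectin-like receptors tested over both lines, 1 fell, where 10.2% of all genes did (Klrc2, the activating NKG2C, -1.10 (SE 0.23, adjusted p = 0.0156)), and Klra4, Klra7, Klra8 and Klra9 gave log2 differences between -0.26 and 0.40 with adjusted p of 0.228 to 0.504.

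Interferon-stimulated genes lay higher in cold. In C57BL/6J mice 25 of 27 tested genes of the list had log2 differences above 0 (median 0.72), 22 with COLD libraries above both RT libraries (33.7% of all genes did so), and 1 rose (0.0357% of all genes did). That gene was Ly6a (Sca-1), at 16.3 and 22.4 CPM at RT against 111 and 177 CPM in COLD (2.62 (SE 0.37, adjusted p = 0.0241), called in 4 of 6 fits without 1 library), and at 381 and 41.7 CPM in WT COLD and KO COLD against 0 CPM in WT RT and KO RT. Over both lines 10 of 25 rose (7.39% of all genes did so), with a median of 0.76, and under the blocks 4 of 30. Bst2 (tetherin), which holds budding virions at the cell surface, stood at 64.7 and 86.3 CPM at RT against 185 and 304 CPM in COLD and at 50.7 and 29.2 CPM and 420 and 338 CPM in the Adrb1 line (2.41 (SE 0.36, adjusted p = 0.00653)). Rtp4, an interferon-induced chaperone, stood at 16.7 and 14.4 CPM at RT against 65.5 and 95.7 CPM in COLD and at 9.004 and 20.1 and 76.3 and 70.4 CPM (2.45 (SE 0.33, adjusted p = 0.00575)). All 4 COLD libraries were above all 4 RT libraries for both genes, as for 6.79% of all genes. Isg15, a ubiquitin-like modifier, stood at 59.0 and 81.8 CPM at RT against 140.4 and 210 CPM in COLD and at 26.8 and 89.0 and 204 and 202 CPM (1.63 (SE 0.33, adjusted p = 0.0126)), and Usp18, the protease that removes it, at 4.27 and 8.36 CPM at RT against 33.1 and 63.5 CPM in COLD (2.81 (SE 0.54, adjusted p = 0.0119)). Ly6e, Zbp1, Xaf1, Trim30a and Phf11b also rose, by 1.71, 1.19, 1.27, 0.76 and 1.32. Bst2, Rtp4, Ly6a and Ly6e were called in 8 of 8 fits without 1 library, Isg15 in 7, Usp18 and Zbp1 in 6, Xaf1 and Phf11b in 3 and Trim30a in 1. Gbp4 and Gbp7, which interferon-gamma also induces, were not called over both lines (-0.11 and -0.13). Gbp7 gave 0.72 in C57BL/6J mice and -1.11 in the Adrb1 line, a difference between the lines that passed the test (adjusted p = 0.0243), and Gbp4 gave 0.72 in C57BL/6J mice and -1.10 in the Adrb1 line (adjusted p = 0.0608). The paper reports interferon-regulated genes, Isg15 among them, in a macrophage cluster that increased with cold. The part of such transcripts here was not tested beyond leaving out the cells with markers of other types.

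Promoters of these genes often carried 2 copies of GAAA spaced by 2 bases (GAAANNGAAA on either strand, the core that interferon-stimulated response elements share). Within the window from 250 bases before to 50 bases after the gene start in RefSeq on GRCm38.p6, 21 of the 32 listed interferon genes with an entry held a match (65.6%), against 3.44% of all 32851 promoters and 4.23% of the 3715 genes tested outside the list. Among the genes that rose, 4 of 5 with an entry held one, as did 6 of 11 tested genes of the list that were not called. Of the other lists searched, 3 of 13 MHC class I promoters (23.1%) and 3 of 15 cytotoxic granule promoters (20%) held a match, and none of 24 cell cycle, 9 mature-stage and 9 immature-stage promoters did. The promoters of 3 genes that rose, with 3, 2 and 1 matches, are given to let the spacing be seen. Printed are the 250 bases before the gene start, with matches in capitals. They are Isg15 (chr4:156200819-156201068, minus strand, matches starting 78, 72 and 66 bases before the gene start), Bst2 (chr8:71537473-71537722, minus strand, 130 and 124 bases before) and Phf11b (chr14:59341331-59341580, minus strand, 50 bases before).
Isg15: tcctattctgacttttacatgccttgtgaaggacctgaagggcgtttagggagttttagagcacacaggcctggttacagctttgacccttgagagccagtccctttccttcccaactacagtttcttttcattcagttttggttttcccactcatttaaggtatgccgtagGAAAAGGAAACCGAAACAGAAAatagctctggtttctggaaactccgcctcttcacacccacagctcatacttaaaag
Bst2: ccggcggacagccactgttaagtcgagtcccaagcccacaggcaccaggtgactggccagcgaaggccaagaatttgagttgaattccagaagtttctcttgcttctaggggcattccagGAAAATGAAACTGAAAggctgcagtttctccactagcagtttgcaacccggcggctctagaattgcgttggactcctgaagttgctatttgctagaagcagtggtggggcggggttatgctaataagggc
Phf11b: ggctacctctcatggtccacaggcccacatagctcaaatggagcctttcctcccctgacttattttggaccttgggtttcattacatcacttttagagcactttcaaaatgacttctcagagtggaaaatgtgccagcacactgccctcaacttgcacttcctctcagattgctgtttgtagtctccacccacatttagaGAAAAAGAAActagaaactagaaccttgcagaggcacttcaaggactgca
A match is a run of letters and does not show that a factor binds there.

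**Figure D4:**
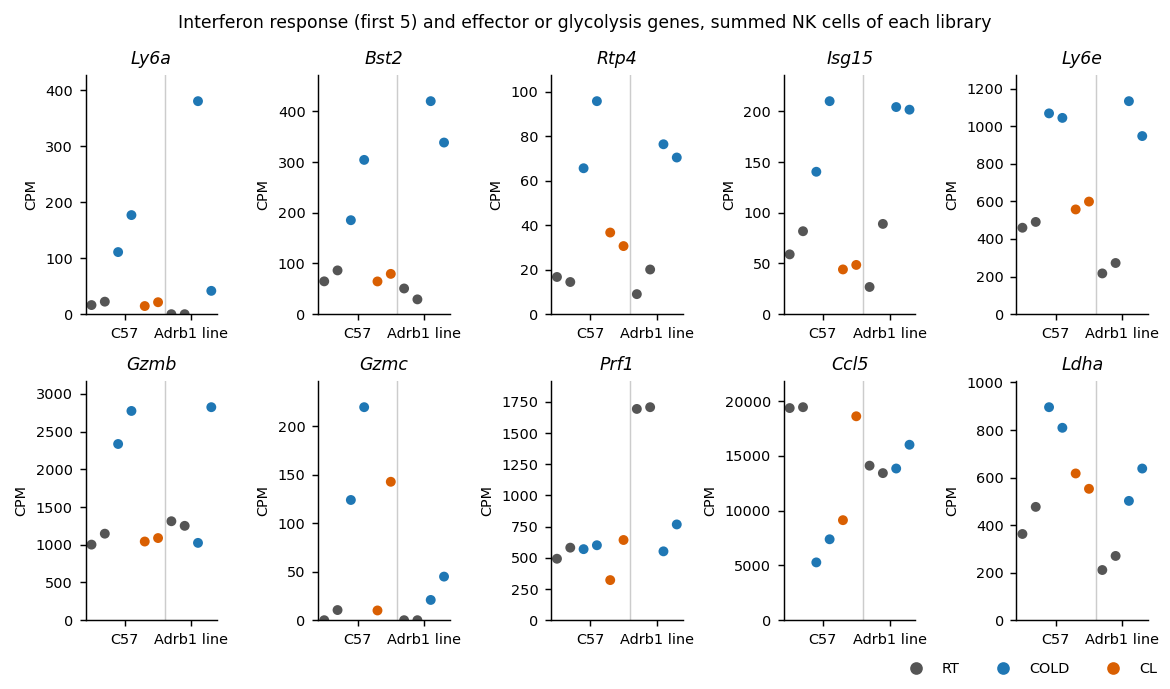
CPM of 5 interferon-stimulated genes (upper row) and of Gzmb, Gzmc, Prf1, Ccl5 and Ldha (lower row) in the NK cells of each Lin+ library, C57BL/6J to the left of the line and the Adrb1 line to the right, with RT in grey, COLD in blue and CL in orange. Bst2 lies between 185 and 420 CPM in COLD and between 29.2 and 86.3 CPM elsewhere, whereas Prf1 in C57BL/6J mice shows no order by condition.

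Glycolytic enzymes lay higher in cold. Of 9 tested, 8 had log2 differences above 0 in C57BL/6J mice (median 0.69, none called), and over both lines 5 rose (median 0.74, against 7.39% of all genes that rose): Ldha, which makes lactate, by 1.23 (SE 0.23, adjusted p = 0.0112), Aldoa by 1.35, Pkm by 0.86, Pgk1 by 0.86 and Tpi1 by 0.71. Ldha stood at 363 and 477 CPM at RT against 896 and 809 CPM in COLD. Of 18 transcription factors tested in C57BL/6J mice none was called (median -0.34). The list summed to 3989 and 5368 CPM at RT against 3638 and 4972 CPM in COLD there, and to 9087 and 8347 CPM in WT RT and KO RT, above the other 8 libraries (3594 to 6211 CPM). Over both lines 5 of 19 fell (10.2% of all genes did so) and none rose (median -0.60): Zeb2, Gata3 (-1.37 (SE 0.24, adjusted p = 0.00898)), Ets1 (-1.18 (SE 0.25, adjusted p = 0.0164)), Ikzf3 (-1.01) and Bhlhe40 (-0.69). Gata3, a factor of NK-cell development and exit, stood at 89.2 and 102 CPM at RT against 46.6 and 46.0 CPM in COLD. Eomes and Tbx21, the T-box pair that defines NK cells, gave -0.55 (SE 0.22, adjusted p = 0.0931) and -0.60 (SE 0.22, adjusted p = 0.0755), and in C57BL/6J mice Eomes stood at 231 and 248 CPM at RT against 220.3 and 207 CPM in COLD. The receptor for glucocorticoids, Nr3c1, fell over both lines (-1.30 (SE 0.28, adjusted p = 0.0166)), as did its target Per1 (-1.13 (SE 0.27, adjusted p = 0.0217)). In C57BL/6J mice they gave -0.86 and -1.48 and were not called (adjusted p = 0.215 and 0.121). The adrenergic and glucocorticoid list summed to 863 and 981.5 CPM in WT RT and KO RT and to 334.5 to 663 CPM in the other 8 libraries. Of 21 immediate early and heat shock genes 6 rose (7.39% of all genes did so), among them Atf3, at 37.3 and 40.4 CPM at RT against 81.7 and 128 CPM in COLD (1.83 (SE 0.30, adjusted p = 0.00807)). Adrb3, the receptor that CL316,243 activates, had 0 UMIs in the NK cells of each of the 10 libraries.

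Some of the genes that rose in NK sums are expressed by other cell types. Spp1 (osteopontin), which macrophages secrete and activated lymphocytes can also make, stood at 8.53 and 77.5 CPM at RT against 489 and 559 CPM in COLD (3.25 (SE 0.49, adjusted p = 0.0241), called in 5 of 6 fits without 1 library), at 114 and 219.5 CPM in CL, and at 3.03 and 30.2 and 1508 and 472 CPM in the Adrb1 line. Macrophage markers summed to 127 and 393 CPM in C57BL/6J RT, 260 and 1030 CPM in COLD, 36.8 and 70.6 CPM in WT RT and KO RT and 1731 and 300.3 CPM in WT COLD and KO COLD. Their part in the Spp1 result was not tested beyond leaving out the cells with markers of other types, after which Spp1 gave a log2 difference of 3.11 (adjusted p = 0.00173) in C57BL/6J mice. Itga2 gave -2.64 and Ly6a 2.86 in the same fit. Over both lines, named genes that rose most included the erythroid Hbb-bt, Hba-a1, Hba-a2 and Alas2 and the myeloid Ms4a6d, Ccl2 and Cfp. Among the named genes, those that fell most after Itga2 were Rap1gap2, Kdm3a, Itga4, Hipk3 and Dock5, by -2.31, -2.19, -2.12, -2.005 and -1.97. The remaining C57BL/6J call was Rpl9-ps6, a ribosomal protein pseudogene, named here after its values were seen.

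Within the Adrb1 line 1982 of 5573 genes passed the test between COLD and RT (35.6%), 1088 higher (19.5%) and 894 lower (16.0%). That comparison was added after seeing the data, and in it kit, collection day and temperature cannot be told apart. Lars2 stood at 883 and 980 CPM in WT RT and KO RT and at 4 to 25 CPM in the other 8 libraries, while B2m stood at 1430 and 1477 CPM against 3615 to 5526 CPM, in both of which the version 3 libraries stood apart. The Itga2 difference there was -2.70 (SE 0.29) against -2.63 (SE 0.29) in C57BL/6J mice. The difference between the lines in the cold response passed the test for 501 of 5573 genes (8.99%), 112 higher in C57BL/6J mice (2.01%) and 389 lower (6.98%). For Itga2 that difference gave an adjusted p of 0.93, for Itgam 0.597 and for Bst2 0.0154. For Cma1, with -2.29 and -0.24, it was 0.0226, and for Mki67, with 2.31 and -1.69, it was 0.0285. Dendritic cell markers, mostly MHC class II genes, summed to 12.2 and 7.27 CPM in WT RT and KO RT and to 3682 and 824 CPM in WT COLD and KO COLD, and their part in these calls was not tested.

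CL316,243 treatment was compared with RT to see the response to the ADRB3 agonist. The pump was implanted under the skin and none is described for the RT mice, so that pump and agonist cannot be told apart. No gene passed the test (0 of 5599, 0.0%), 386 (6.89%) had an unadjusted p under 0.05, and DESeq2 called 0 as well. The libraries disagreed. Cell cycle transcripts were found in 49.2% (exact 95% interval 36.4 to 62.1%) of NK cells in the first and 8.62% (exact 95% interval 4.21 to 15.3%) in the second, and Mki67 stood at 419 and 71.3 CPM against 72.5 and 26.9 CPM at RT. T cells of these libraries differed in the same direction, at 17.8% and 2.77%. In the second CL library 31.8% of NK cells had markers of other types and erythroid genes summed to 32030 CPM, against 6.59% of cells and 16.6 CPM in the first. Without the second CL library 157 genes passed the test, 20 without the first, 8 and 9 without the first and second COLD library and 4 without the second RT library. Of the named genes, H2afx, a histone of dividing cells, stood at 372 and 210.4 CPM in CL and 97.4 and 103 CPM at RT (1.39 (SE 0.29, adjusted p = 0.267)), and S100a4, a calcium-binding protein of motile cells, at 172 and 193 and 430.3 and 432 CPM (-1.32 (SE 0.26, adjusted p = 0.267)). Itga2 gave -0.88 (SE 0.28, adjusted p = 0.612). The interferon list had a median of -0.19 in CL, with 6 of 27 above 0, and the mature-stage list a median of -0.40.

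Cold and CL were then set against each other, since both drive iBAT but the second does so through 1 receptor. No gene passed the test here either (0 of 5599, 0.0%), with 296 (5.29%) at an unadjusted p under 0.05, 0 calls by DESeq2, 1 call under the replicate block, 47 without the first CL library, 19 without the second and 5 without the first COLD library. Interferon genes lay higher in COLD in 26 of 27 (median log2 difference 1.00), 24 without overlap of the libraries (19.3% of all genes did so). Isg15 stood at 140.4 and 210 CPM in COLD and 44.1 and 48.6 CPM in CL (1.79 (SE 0.32, adjusted p = 0.156)), Bst2 at 185 and 304 and 64.6 and 79.5 CPM (1.65 (SE 0.32, adjusted p = 0.156)) and Ly6a at 111 and 177 and 14.6 and 21.4 CPM (2.81 (SE 0.41, adjusted p = 0.0702)). For each of these genes both CL libraries lay below both COLD libraries. Ltb gave 1.35 (SE 0.28, adjusted p = 0.208), Itga2 -1.75 (SE 0.33, adjusted p = 0.156) and Cma1 -2.18 (SE 0.40, adjusted p = 0.156).

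KO and WT mice were compared within the fit of all 10 libraries, with 1 RT and 1 COLD library for each genotype. Of 5573 genes 2 (0.0359%) passed the test, both lower in KO: Ccl2, at 2.97 and 459 CPM in WT RT and COLD and 0 and 68.8 CPM in KO, and Ly6a, at 0 and 381 CPM and 0 and 41.7 CPM. Each was called in 6 of 10 fits without 1 library, and no gene was called without WT RT, without WT COLD, without KO COLD or without the second C57BL/6J RT library, by DESeq2, or without cells with markers of other types. The count was 14 without the first CL library and 13 without the second. Macrophage markers were higher in WT COLD than in KO COLD by the values given above for Spp1, and Ccl2 is a chemokine of macrophages and stromal cells. Their part in these 2 calls was not tested beyond leaving out the cells with markers of other types. Cell cycle genes had a median log2 difference of 0.92 (24 of 26 above 0, none called), with Mki67 at 51.3 and 16.4 CPM in WT and 121 and 22.04 CPM in KO. Among the genes named by the rule, Cenpe gave 4.27 (SE 1.01, adjusted p = 0.509) and Rora 1.78 (SE 0.51, adjusted p = 0.998). NK cells were 2.74 ± 1.78% of Lin+ cells in WT and 2.58 ± 0.0484% in KO (SD, n = 2, exact permutation p = 1). Each mean holds 1 RT and 1 COLD library, so that its SD includes the temperature difference and the permutation exchanges libraries across temperatures. The share in KO was below WT at RT (2.61 against 4.00%) and above it in COLD (2.55 against 1.48%).

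To ask which of these differences NK cells did not share with T cells, the cold response was compared between the NK and T cells of the same libraries. In C57BL/6J mice 14 of 7332 genes (0.191%, with 7 or 0.0955% in each direction) differed, and over both lines, in a fit chosen after seeing the data, 142 of 8718 (1.63%), 71 in each direction (0.814%). DESeq2 called 0 in C57BL/6J mice (103 at an unadjusted p under 0.05) and 111 over both lines. The C57BL/6J count was 4 without the second RT library, 29 without the first CL library and 26 without the second. The count over both lines was 43 without WT RT, 59 without the second C57BL/6J RT library, 74 without KO RT, 77 without the first COLD library and 90 without KO COLD. A negative difference means that the log2 change with cold was lower in NK than in T cells, whether or not the gene fell in NK cells. Itgam differed by -1.91 (SE 0.28, adjusted p = 0.000806) over both lines, Zeb2 by -1.44 (SE 0.22, adjusted p = 0.00107), Itga2 by -1.66 (SE 0.39, adjusted p = 0.0269) and Itga4 by -0.90 (SE 0.16, adjusted p = 0.00442). Itga4 also fell in T cells (-1.24 (SE 0.34, adjusted p = 0.0277)), in which 25.8% of genes were called over both lines. All 11 mature-stage genes lay below 0 (median -1.44) and 4 passed: Itgam, Zeb2, Gzmb and Cx3cr1. The paper used Itgam as a marker of monocyte-derived dendritic cells. Dendritic cell markers in the T-cell sums also rose with cold, by the values given below, and their part in these differences was not tested. Of the 11 immature-stage genes 6 were higher, among them Thy1 (1.03 (SE 0.17, adjusted p = 0.00207)), Tcf7 (1.33 (SE 0.26, adjusted p = 0.00775)), a factor of resting lymphocytes that fell in T cells (-0.76 (SE 0.21, adjusted p = 0.0262)), and Il7r (2.32 (SE 0.45, adjusted p = 0.00775)). Il7r was found in 1.05% of thinned NK cells and 41.9% of T cells, so that its difference rests on few NK transcripts. Xcl1 rose in T cells too (1.76 (SE 0.51, adjusted p = 0.0305)) and the difference was -0.08 (SE 0.29, adjusted p = 0.974).

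Cytotoxic genes parted within the granule list. Gzmc stood at 0 to 10 CPM in NK cells at RT and 21 to 220 CPM in COLD, and at 0 and 14.8 CPM in T cells of C57BL/6J RT and 4.92 and 5.63 CPM in COLD, and the difference passed the test over both lines (adjusted p = 0.000111), in C57BL/6J mice alone (0.000295, not called by DESeq2) and for CL against RT (0.000488, not called by DESeq2), where 2 of 7332 genes (0.0273%) differed. Few cells of either type held Gzmc, by the shares given above. Gzmb, in contrast, rose more in T cells, where it stood at 80.2 and 67.4 CPM in C57BL/6J RT and 356 and 383 CPM in COLD, and differed by -1.62 (SE 0.31, adjusted p = 0.00775). Ccl4, Ccl3 and Irf8 rose in T cells (2.23, 2.05 and 1.68), gave -0.01, 0.09 and -0.49 in NK cells, where they were not called, and differed by -2.14 (adjusted p = 0.000514), -1.92 (0.00299) and -2.05 (0.000189). The adaptors Tyrobp and Fcer1g differed by -1.67 and -1.59 (0.000189 and 0.00097). Myeloid cells express Irf8, Tyrobp and Fcer1g as well. The T-cell sums held 1012 and 1505 CPM of macrophage markers in C57BL/6J RT and 1457 and 1673 CPM in COLD, and 393.5 and 240.7 CPM in WT RT and KO RT against 1655 and 1759 CPM in WT COLD and KO COLD. Dendritic cell markers in the T-cell sums went from 4742 and 4330 CPM to 7002 and 8833 CPM in C57BL/6J mice and from 598 and 549 CPM to 5943 and 3746 CPM in the Adrb1 line. The part of both in these differences was not tested. The fit without cells with markers of other types left such cells out of the NK sums only, and the T-cell sums stayed as they were. In it Irf8 differed by -1.99 and Tyrobp by -1.75.

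Interferon genes rose in T cells as well: 20 of 44 rose in C57BL/6J mice, where 83 of all 8282 genes (1.0%) were called and 0.628% rose, with Isg15 at 1.73 (SE 0.23, adjusted p = 0.00538) and Irf7 at 2.59 (SE 0.25, adjusted p = 0.000494). In B cells the list summed to 3798 to 4571 CPM in the RT libraries of both lines and to 4857 to 5557 CPM in COLD. The CL libraries gave 5379 and 4346 CPM in B cells. Between NK and T cells 1 of 44 differed over both lines, where 1.63% of all genes did. It was Irf7 (-1.55 (SE 0.30, adjusted p = 0.00807)), a factor that amplifies the response and stood at 59.4 and 78.5 CPM at RT against 74.1 and 117 CPM in COLD in NK cells. Isg15, Bst2 and Rtp4 gave differences of -0.48 (SE 0.30), 0.71 (SE 0.26) and 0.32 (SE 0.42), which does not show that the cell types respond alike. Of the 26 cell cycle genes none differed over both lines (median 0.76), and 2 were higher in NK cells in C57BL/6J mice, Mki67 (1.57 (SE 0.30, adjusted p = 0.0209)) and Pclaf (1.33 (SE 0.24, adjusted p = 0.0117)), each called in 3 of 6 fits without 1 library and not by DESeq2. The other C57BL/6J differences included Retnlg and S100a9, neutrophil genes, and Pf4, Cst3, Ctsb and Selenop, genes of macrophages. With cells with markers of other types left out of the NK sums, but not of the T-cell sums, Retnlg turned from 4.52 to -0.33 and S100a9 from 2.26 to -1.21.

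**Figure D5:**
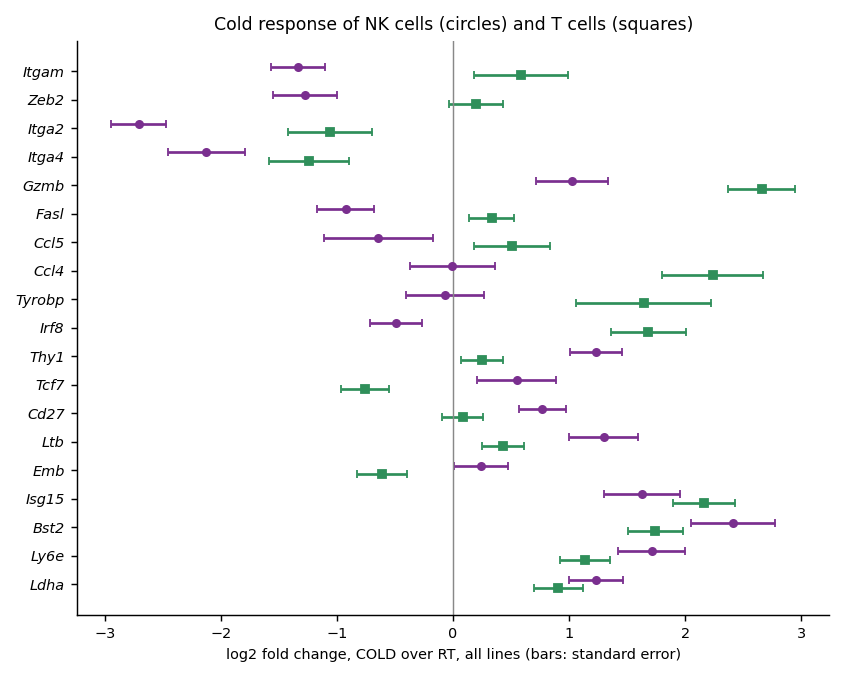
Log2 difference between COLD and RT over both lines for 19 genes in NK cells (circles) and T cells (squares) with standard errors, from the edgeR fits. Itgam, Zeb2, Itga4 and Itga2 lie below 0 in NK cells and lower there than in T cells, Isg15 and Bst2 lie above 0 in both, and Gzmb lies at 1.03 in NK cells and 2.66 in T cells.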

How the data were processed

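The authors aligned 10x Genomics reads to mm10 with Cell Ranger 3.0.1 and removed background RNA with SoupX, using Fabp4 and Car3 as contamination genes, so the deposited expected count values are UMIs that need not be whole. Subtraction of background lowers genes that are abundant in the tissue. No doublet caller was used here beyond the limits on UMIs and exclusion genes. The members, gene lists and comparisons were chosen with earlier results of these data known.

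Counts of the NK cells of each library were summed, rounded and tested with the quasi-likelihood test of edgeR 4.0.16 in R 4.3.3 (TMM scaling, filterByExpr), with Benjamini-Hochberg adjustment over all genes tested and a threshold of 0.05. Genes counted as called passed that threshold. CPM are UMIs divided by the total of the summed NK cells of the library and scaled, and are not corrected for gene length. The C57BL/6J contrasts were fitted on 6 libraries, cold over both lines on 8 with a term for line, and KO against WT on all 10. NK and T cells (Cd3d, Cd3e and Cd3g summing to at least 2, NK receptors under 0.5) were compared by a cell type by treatment term with the library as a block. Shares were tested by exact two-sided permutation over libraries, with exact (Clopper-Pearson) 95% intervals that cover counting error only. Libraries are pools of mice, and p-values measure the spread between libraries.

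Up to 12 genes in each direction were named per comparison, those with adjusted p under 0.05, a mean of at least 20 CPM in one group and no overlap between libraries, ordered by size of change. Where fewer than 5 passed, up to 5 more were given as values by unadjusted p. Picking, mitochondrial, ribosomal and sex-linked genes were left out, and all members of the gene lists could be named. The C57BL/6J replicate number marks a shared experiment in the study's description. Deviations from group means correlated by 0.047 between RT and COLD, 0.044 between RT and CL and 0.231 between COLD and CL over 2827 genes. DESeq2 1.42.0, another scaling, no filter on low counts, other picking limits, the replicate block, removal of NK cells with markers of other types (T cells were not filtered) and removal of each library were tried as alternatives. Scripts were tested on simulated data.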

Additional observations from a re-analysis of the deposited data

Results flagged for a closer look

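Results were singled out where an effect differed between groups by a test of the difference, or where signal appeared in libraries outside the comparisons. The response to cold differed between C57BL/6J mice and the Adrb1 line for 501 genes, a comparison in which the Adrb1 RT libraries alone used version 3 of the kit. The response to cold differed between NK and T cells for 14 genes in C57BL/6J mice and for 142 genes over both lines, and the response to CL316,243 for 2 genes, Gzmc and Retnla. Retnla, a gene of macrophages, stood apart in 4 of 6 fits without 1 library, as did Gzmc.

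Cells that passed the same limits on the picking genes were also found in the lineage-negative (Lin-) libraries, which no test between conditions used. They were 184 of 65179 kept cells (0.282%), 1 to 49 per library. Their share was higher in COLD than at RT in both lines, unlike the NK share of Lin+ cells. For the NK share, the cycling share and the median UMIs, the 3 measures tested, no RT or COLD library stood far from the other 3 by Dixon's test. The NK share in COLD came closest, with a gap of 0.804 of the range, under the critical value.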

How the results depend on the processing

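Fewer NK cells or libraries and other settings mainly changed how many genes passed. Of the alternatives run on the main shares and counts, 105 gave the same call, 30 were weaker, 42 stronger and 4 reversed, and for named genes 1474, 611 and 9 were the same, weaker and reversed. As a share of NK, T and B cells, NK cells were higher in COLD in C57BL/6J mice (9.08 points) and over both lines (5.58), and in CL the difference was 4.21 (p = 1 by exact permutation), with the libraries at 21.7 and 7.40% on either side of RT. Over both lines the difference in the NK share lost its call with a picking sum of 5 (-1.17), without Gzma in the sum (-0.983) and after thinning (-1.32), and with libraries exchanged within each line (-1.25, exact p = 0.0556). The cause was not tested.

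With the replicate number as a block the C57BL/6J calls were 32 for COLD against RT and 1 for COLD against CL, and with the C57BL/6J replicate and the Adrb1 genotype as blocks those over both lines were 25. RT and COLD of the Adrb1 line were collected on different days, so that those pairs share only the genotype. Of 98 named genes called over both lines 82 lost their call under these blocks, and all 3 in C57BL/6J mice kept it. CL against RT stayed at 0 calls, and no block was fitted for the other comparisons. Without a filter on low counts the calls were 274 (C57BL/6J COLD against RT), 62 (CL against RT), 35 (COLD against CL), 33 (KO against WT), and for NK against T cells 41 (C57BL/6J cold), 18 (CL) and 256 (cold, both lines). With DESeq2 they were 19, 537 over both lines, 0 for KO against WT and 0 for both C57BL/6J comparisons with T cells. Without cells with markers of other types they were 189, 14 for COLD against CL, 0 for KO against WT, and 54, 6 and 274 for NK against T cells, where only the NK sums were filtered. The 4 C57BL/6J libraries alone gave 278, and 78 with DESeq2. A picking sum of 5 left 1 call for KO against WT.

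Leaving out each library in turn gave NK share differences of -2.27 to -0.144 (C57BL/6J COLD), -2.92 to -0.803 (CL), 0.314 to 1.00 (COLD against CL), -1.55 to -0.843 (both lines, with -1.005 without WT COLD, -1.36 without KO COLD, -1.29 and -1.34 without the first and second C57BL/6J COLD library) and -1.42 to 1.10 (KO against WT, 1.10 without WT RT), and a cycling difference of 4.19 to 11.9. The calls ranged from 4 to 349, 0 to 157, 0 to 47, 41 to 1293, and 0 to 14 for the same comparisons, from 4 to 29, 2 to 11 and 43 to 170 against T cells, and from 295 to 364 for Lin- against Lin+. Without cells with markers of other types Ctss turned to -0.81 over both lines, and against T cells S100a9 to -1.21 and Retnlg to -0.33 in C57BL/6J mice (Retnlg also to -0.96 without the second COLD library, against 5.15 without the first) and Ctss, Hbb-bt, Hbb-bs, Hba-a1 and Hba-a2 to -1.71, -1.89, -3.36, -1.56 and -2.67 over both lines. Such cells were left out of the NK sums and not of the T-cell sums. Over both lines the calls were 111, 345, 288 and 41 without WT RT, WT COLD, KO RT and KO COLD and 213 without the first C57BL/6J RT library, and those against T cells 43, 74 and 90 without WT RT, KO RT and KO COLD and 59 without the second C57BL/6J RT library. Sums of 60 to 223 cells limit genes of a few CPM.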

Other observations

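The cells of the Lin- libraries that passed the NK limits were set against the NK cells of the matching Lin+ libraries, over the 8 experiments with at least 10 such cells and with the experiment as a block, a comparison chosen after seeing the data. Of 4718 genes 401 (8.5%) passed the edgeR test, 122 higher and 279 lower in the Lin- cells. Genes of type 1 innate lymphoid cells, the tissue-resident relatives of NK cells, were higher for 8 of the 10 tested (against the 122 of 4718 in all, median log2 difference 1.89). Cxcr6, a homing receptor of tissue-resident lymphocytes, stood at 156 ± 116 CPM in Lin- and 7.26 ± 7.57 CPM in Lin+ cells (SD, n = 8; log2 difference 3.79, SE 0.47, adjusted p = 1.03e-07), and was higher in 8 of 8 experiments. Ltb, Gpr183, Rora and Tmem176b were higher in 8 of 8 as well, by 1.55, 2.18, 1.78 and 1.77, and Il7r in 6 of 8 (2.03, adjusted p = 0.00643).

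Mature-stage genes were lower for 6 of the 8 tested (against the 279 of 4718 in all, median -1.03). Itgam, at 26.5 ± 33.2 CPM in Lin- and 90.2 ± 39.5 CPM in Lin+ cells, is among them. The antibody mixture that divides the fractions binds CD11b, its product, so that this difference cannot be told apart from the sort. Zeb2 and Cma1 gave -1.23 and -1.78. CD11b marks mature NK cells, so that the differences in the other mature-stage genes cannot be told apart from the sort. The same holds for the genes of type 1 innate lymphoid cells. Stromal, endothelial and adipocyte markers were higher in the Lin- cells for 5 of 6 tested (median 3.68) and erythroid markers lower for 4 of 4 (against the same 122 higher and 279 lower), and the part of these other transcripts in the differences was not tested.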
